A study of Mus musculus with 15 samples.

Results

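The 37 mitochondrially encoded genes are all genes of the annotation whose symbol starts with mt-, out of 55536 annotated genes. They comprise 13 protein-coding genes, 2 ribosomal RNA (rRNA) genes and 22 transfer RNA (tRNA) genes. Their RNA was measured in CD8+ T cells of OT-1 Tg C57BL/6J mice, which carry a transgenic T cell receptor for an ovalbumin peptide and had been transferred into C57BL6/J recipients. The recipients were given either the antigen alone (Ag, 5 libraries) or the antigen with the agonist antibodies anti-OX40 and anti-41BB (Ag+Costim, 5 libraries). Both antibodies engage costimulatory receptors of the TNF receptor family. By the study's methods, Ag recipients were also given rat IgG as a control, OT-I donors were deficient in Rag1 or Rag2, and donor cells were told from the recipients' own by CD45.1 and the Vα2 and Vβ5 chains of the receptor. CD8+ T cells were sorted from spleen and lymph nodes, at day 4 according to the labels and at a somewhat shorter time according to the methods. Each library comes from its own sample of 1 group, and p-values measure the spread between these libraries. The cells are bulk samples, so fewer cells of a type and less RNA per cell cannot be told apart.

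The mitochondrial genome is a small circle that is transcribed from both strands into long precursors. Cutting the precursors at their tRNAs, which punctuate the genome, releases the rRNAs and mRNAs, and the products are then matured and, for mRNAs, given a short poly(A) tail. The mRNAs encode core subunits of respiratory complexes I, III, IV and V, and the rRNAs and tRNAs serve the ribosomes that translate them. All proteins that transcribe, process and translate this RNA are made from nuclear genes. Activated T cells are known to build up mitochondria while they divide. Of the 37 genes, 9 are products of the light strand (mt-Nd6 and 8 tRNAs), and the other 28 are products of the heavy strand.

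Several results below turn on how neighbouring genes are laid out (GENCODE M21, mm10, sequences 5′ to 3′ on the strand of the gene). The first set shows the 3′ ends of the rRNAs, since the ratio of the small (mt-Rnr1, chrM:70-1024) to the large rRNA (mt-Rnr2, chrM:1094-2675) differed between the groups. Both are plus-strand genes, and the last 60 bases are given, at chrM:965-1024 and chrM:2616-2675.
mt-Rnr1: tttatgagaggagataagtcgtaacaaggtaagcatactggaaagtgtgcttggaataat
mt-Rnr2: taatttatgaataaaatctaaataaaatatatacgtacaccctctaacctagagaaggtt
A of the bases made up 37.8% of mt-Rnr1 and 38.2% of mt-Rnr2. The longest run of A was 5 in mt-Rnr1 and 7 in mt-Rnr2, which held 4 runs of at least 6. Library construction started from oligo(dT) primers, and whether inner runs of A took part in priming was not tested.

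The second set shows the tRNA genes with the highest and the lowest level per length, which are direct neighbours between mt-Co1 and mt-Co2. mt-Ts1, a tRNA for serine, lies on the minus strand (chrM:6870-6938) and shares its last 3 bases, in capitals, with the end of mt-Co1 on the plus strand. mt-Td, the tRNA for aspartate, lies on the plus strand (chrM:6942-7011).
mt-Ts1: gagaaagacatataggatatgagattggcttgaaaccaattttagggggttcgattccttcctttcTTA
mt-Td: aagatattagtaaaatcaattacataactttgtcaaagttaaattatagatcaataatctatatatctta
It is known that the mt-Co1 mRNA keeps the sequence complementary to this serine tRNA at its 3′ end. The kit does not mark strand, so reads from that part of the mt-Co1 mRNA and reads from mt-Ts1 cannot be told apart. The same holds for mt-Nd5 and mt-Nd6, which overlap at their ends on opposite strands. It also holds over the whole length of every light-strand gene, whose counts can include reads from heavy-strand precursors.

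The third set shows the 2 pairs of mRNA genes on the plus strand that overlap by more than 1 base, each with 15 bases on either side and the shared bases in capitals. mt-Atp8 and mt-Atp6 share 43 bases (chrM:7927-7969), and mt-Nd4l and mt-Nd4 share 7 (chrM:10167-10173). Each pair is known to be carried on 1 bicistronic mRNA, so each ratio below compares the 5′ and the 3′ part of a common transcript.
mt-Atp8 and mt-Atp6: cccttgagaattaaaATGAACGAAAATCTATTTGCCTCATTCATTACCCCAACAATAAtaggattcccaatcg
mt-Nd4l and mt-Nd4: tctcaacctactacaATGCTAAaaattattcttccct
3 of the 13 mRNAs (mt-Co3, mt-Nd4 and mt-Cytb) end in a lone T after their last whole codon, which the poly(A) tail is known to complete to a stop codon. For mt-Nd4 the last 15 bases (chrM:11530-11544) are given, with that base in capitals.
mt-Nd4: caggcctgacaataT

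The deposited counts summed to between 59598556 and 449401065 per Ag library and between 332290834 and 639070261 per Ag+Costim library, as estimates from coverage, not as reads. The Ag libraries differed among themselves. Ag 1, 3 and 4 had a count for 40441 to 51778 genes, Ag 2 and 5 for 21779 and 20714, and the Ag+Costim libraries for 28727 to 30340. The 8 markers of CD8 T cells summed to between 3549 and 6995 CPM (counts scaled with TMM factors to a common library total) in Ag and between 4737 and 5713 in Ag+Costim, and every one was present in all libraries. Summed levels in Ag and in Ag+Costim ranged from 643.0 to 1179 and from 514.8 to 764.4 CPM for 6 B cell markers, and from 14.7 to 1103 (Ag 3) and from 3.80 to 39.8 CPM for 6 erythroid markers. Those of 4 platelet markers ranged from 0.0673 to 10.7 and from 0.329 to 0.946 CPM, those of 3 CD4 T cell markers from 2.64 to 11.4 and from 0.885 to 4.07, and those of 6 myeloid markers from 35.3 to 120.5 and from 64.8 to 150.3. Median edgeR log2 fold changes (Ag+Costim over Ag) were -2.61 for B cell markers, all 6 below 0, -3.88 for erythroid and -2.38 for platelet markers. Those of CD4 T cell, myeloid and CD8 T cell markers were -1.22, 0.32 and -0.13, beside -0.32 over all genes tested. Among the markers at 0 in at least 1 library were Pax5, Alas2, Ppbp and Gp9. RNAs retained in the nucleus (5 genes, among them Malat1) summed to 2348 and 2430 CPM in Ag 1 and Ag 4, to between 434.2 and 728.6 in the other Ag libraries and to between 255.9 and 495.3 in Ag+Costim. The 10 cell cycle genes summed to 548.1 and 583.9 CPM in Ag 1 and Ag 4, to 2743 in Ag 3, to 4670 and 5039 in Ag 2 and Ag 5, and to between 4446 and 5362 in Ag+Costim. The part of any of these in the results below was not tested.

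Counts of 7 of the 13 mRNAs are uncertain because near-identical nuclear copies carried counts too. A stretch of chromosome 1 (chr1:24611535-24616197) holds 7 annotated pseudogenes, in mirrored order, of mt-Co1, mt-Co2, mt-Atp6, mt-Co3, mt-Nd3, mt-Nd4l and mt-Nd4. 4 of them (Gm28661, Gm10925, Gm28437 and Gm10222) matched mt-Co2, mt-Atp6, mt-Co3 and mt-Nd4l over their aligned length at 100% identity. In every library these 4 copies held between 49.8% and 51.2% of the counts of gene and copy together. Gm28438, at 99.7% identity to mt-Nd3, held between 46.2% and 48.3%. The pseudogenes of mt-Co1 (Gm29216, 483 bases) and mt-Nd4 (Gm28439, 876 bases) cover a part of their gene and held between 16.6% and 22.3% and between 21.5% and 24.7%. Both shares separated the groups. The share of Gm29216 was higher in every Ag library than in every Ag+Costim library, and that of Gm28439 was lower. Gm29216 itself ranged from 732.8 to 1031 CPM in Ag and from 458.1 to 624.3 CPM in Ag+Costim, without overlap. What set these shares apart was not tested. The counts of such a gene and its copy cannot be told apart, so the levels of these 7 mRNAs below are lower bounds of what the pair received. The stretch corresponds to chrM:6381-11042, which also holds mt-Atp8 and the tRNA genes mt-Ts1, mt-Td, mt-Tk, mt-Tg and mt-Tr, for which the search of annotated transcripts gave no copy. The 4 other copies found, of mt-Co1, mt-Co2, mt-Nd2 and mt-Nd5 on chromosomes 2 and 13, held at most 1.37%. No annotated copy was found for mt-Rnr1, mt-Rnr2, mt-Nd1, mt-Nd6 or mt-Cytb.

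Mitochondrial RNA was a smaller share of all gene counts in Ag+Costim, and the 2 groups did not overlap. The 37 genes took 1.77%, 1.202%, 1.96%, 1.84% and 1.22% of the counts in Ag 1 to 5, and 1.18%, 1.04%, 1.16%, 0.943% and 1.10% in Ag+Costim 1 to 5. The means were 1.60% ± 0.360 (SD, n = 5) and 1.09% ± 0.0964 (SD, n = 5). Ag 1, 3 and 4 were high and Ag 2 and 5 lay just above the highest Ag+Costim library. With the nuclear copies added the means were 2.0997% ± 0.430 and 1.43% ± 0.124 (SD, n = 5 each), again without overlap. After TMM scaling the groups overlapped, at between 12680 and 16451 CPM in Ag and between 10617 and 12710 CPM in Ag+Costim. Without the copies, a share of 49.3% to 59.4% of the mitochondrial counts of a library fell on mt-Rnr2, mt-Co1 and mt-Cytb. With the copies added, mt-Co3 (means of 2910 CPM in Ag and 2532 in Ag+Costim) and mt-Atp6 (2380 and 1968) stood above mt-Cytb (1491 and 1539).

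The classes differed in how far the libraries of a group spread. The values below are shares of counts from oligo(dT)-primed libraries, not measures of how much RNA of a class the cells held. rRNA took 31.6%, 19.9%, 32.3%, 30.2% and 20.3% of the mitochondrial counts in Ag 1 to 5, against 21.9%, 23.1%, 22.2%, 19.2% and 20.3% in Ag+Costim 1 to 5. The Ag+Costim libraries thus lay at the level of Ag 2 and 5, below Ag 1, 3 and 4, and the groups overlapped. mRNA took 67.1% to 79.5% in Ag and 76.5% to 80.3% in Ag+Costim. tRNA took 0.582% ± 0.0365 in Ag and 0.504% ± 0.0598 in Ag+Costim (± SD, 5 libraries each), with overlapping libraries. The lower tRNA mean in Ag+Costim rested on mt-Ts1. Without that gene, tRNA took 0.203% ± 0.0604 in Ag and 0.227% ± 0.0370 in Ag+Costim (± SD, 5 libraries each), also with overlap. Read against all gene counts, mRNA was 1.14% ± 0.170 in Ag and 0.848% ± 0.0678 in Ag+Costim, and tRNA 0.00937% ± 0.00253 and 0.00549% ± 0.000897 (SD, n = 5 each), both without overlap. For tRNA the nearest libraries were close, Ag 5 at 0.00635% and Ag+Costim 3 at 0.00631%. mt-Ts1, whose reads cannot be told from those of the mt-Co1 mRNA end, made up 52.0% to 75.0% of these tRNA counts. Genes of the light strand took 1.99% ± 0.366 of the mRNA and tRNA counts in Ag and 1.62% ± 0.0786 in Ag+Costim (± SD, 5 libraries each), with Ag 5, at 1.39%, below all Ag+Costim libraries. These counts are not resolved by strand, so the share is one of gene positions and not of light-strand RNA.

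**Figure D1:**
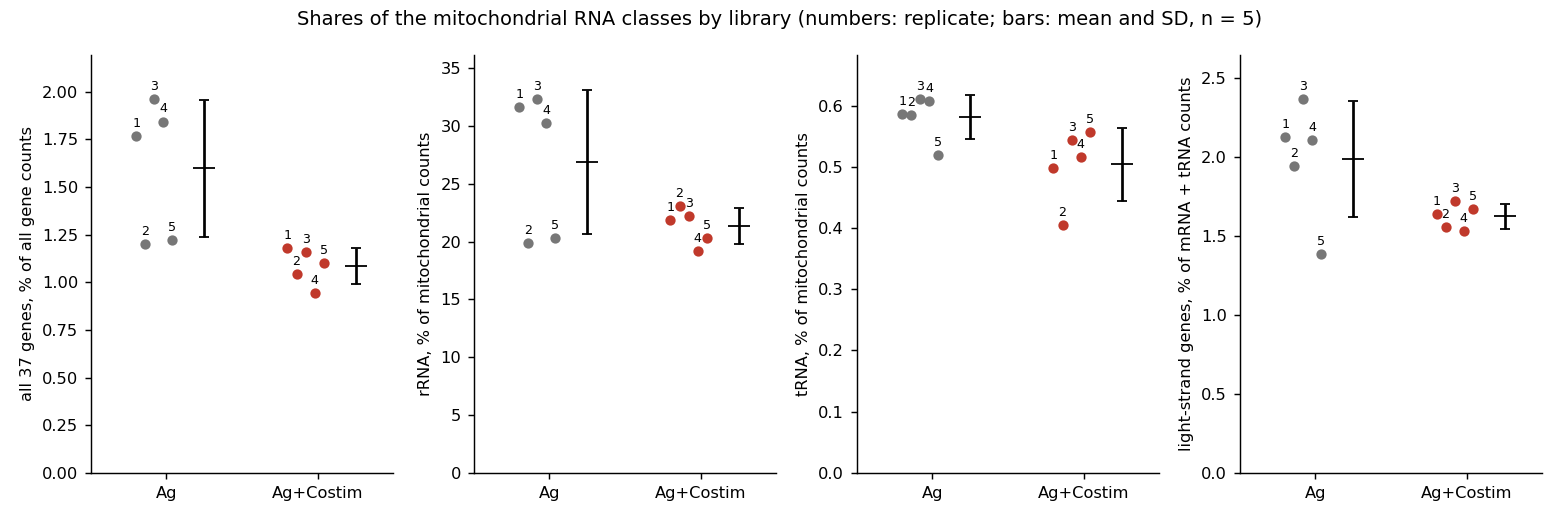
Percent of all gene counts on the 37 genes, percent of mitochondrial counts on rRNA and on tRNA, and percent of mitochondrial mRNA and tRNA counts on light-strand genes, for each library of Ag (grey) and Ag+Costim (red). Nuclear copies were not added. Points are libraries numbered by replicate and bars are mean and SD (n = 5); only in the first panel do the groups not overlap, and Ag 2 and 5 sit near the Ag+Costim libraries in the first 2 panels.

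Of all 37 genes, mt-Rnr1 had the largest fitted difference. The small-subunit rRNA stood at 639.8, 368.6, 951.2, 565.6 and 438.1 CPM in Ag 1 to 5 and at 253.0, 249.3, 253.6, 170.2 and 201.6 CPM in Ag+Costim 1 to 5. Every Ag library lay above every Ag+Costim library, and the Ag+Costim mean was 0.381 of the Ag mean. The log2 fold change was -1.39 ± 0.26 (SE), with an adjusted p of 0.134 in edgeR and of 1.02e-05 in DESeq2. The large-subunit rRNA mt-Rnr2 stood at 3372, 2269, 4362, 3909 and 2566 CPM in Ag 1 to 5 and at 2523, 2361, 2573, 1868 and 2264 CPM in Ag+Costim 1 to 5. Its groups overlapped through Ag 2 and 5, and its log2 fold change was -0.51 ± 0.21 (SE; adjusted p = 0.265 in edgeR and 0.0338 in DESeq2).

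The mRNAs of complex I took 20.5% ± 2.19 of the mitochondrial mRNA counts in Ag and 21.2% ± 0.347 in Ag+Costim (± SD, 5 libraries each). Of its 7 subunits, only mt-Nd4 did not overlap between the groups. mt-Nd4 stood at 340.5, 452.8, 405.6, 395.4 and 366.9 CPM in Ag 1 to 5 and at 290.7, 277.5, 318.2, 268.0 and 289.6 CPM in Ag+Costim 1 to 5. With the counts of Gm28439 added it ranged from 433.7 to 584.1 CPM in Ag and from 354.7 to 418.5 CPM in Ag+Costim, so the order held. Its log2 fold change was -0.44 ± 0.13 (SE; adjusted p = 0.211 in edgeR and 3.18e-09 in DESeq2). mt-Nd1, the first mRNA after the rRNAs, followed the split among the Ag libraries, with 480.6 and 531.9 CPM in Ag 1 and 4, 848.3, 871.0 and 1016 CPM in Ag 2, 3 and 5, and 725.5 to 812.0 CPM in Ag+Costim. mt-Nd5 had its lowest value in Ag 5, at 354.3 CPM against 459.6 to 623.4 in the other Ag libraries and 449.3 to 545.3 in Ag+Costim. mt-Nd6, the only mRNA of the light strand, ranged from 96.6 (Ag 5) to 184.5 CPM (Ag 3) in Ag and from 87.7 to 112.5 CPM in Ag+Costim. The means of mt-Nd2, mt-Nd3 and mt-Nd4l in Ag+Costim were 0.831, 0.860 and 0.902 of those in Ag, all with overlapping libraries.

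Cytochrome b (mt-Cytb), the 1 mitochondrial subunit of complex III, took a larger share of the mRNA counts in Ag+Costim. It made up 12.7%, 15.2%, 15.03%, 12.6% and 15.5% of them in Ag 1 to 5 and 16.4%, 17.1%, 16.004%, 17.5% and 16.1% in Ag+Costim 1 to 5. No library of one group reached into the other, also with the nuclear copies added to the other mRNAs (9.87% ± 0.996 and 11.9% ± 0.454, SD, n = 5 each). Its own mean, 1491 ± 294.4 CPM under Ag against 1539 ± 58.4 CPM under Ag+Costim (SD, n = 5 each), came with overlapping libraries. The 3 mRNAs of complex IV, which encode the core of cytochrome c oxidase, took the largest share of any complex, at 52.0% ± 3.84 and 49.8% ± 1.06 of the mRNA counts. Nuclear copies were not added to this share or to that of complex I. mt-Co1 stood at 3100 ± 361.2 CPM in Ag and 2650 ± 286.5 in Ag+Costim, mt-Co2 at 864.7 ± 159.0 and 720.9 ± 43.2, and mt-Co3 at 1442 ± 260.1 and 1258 ± 90.8 (SD, n = 5 each), and all 3 overlapped. For complex V, the ATP synthase, mt-Atp6 stood at 1181 ± 140.1 and 971.6 ± 64.4 CPM and mt-Atp8 at 197.7 ± 31.0 and 181.1 ± 7.74 CPM (SD, n = 5 each), also with overlap.

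All tRNA genes but mt-Ts1, in a class 59 to 75 bases long, were far below their neighbours in libraries whose fragments averaged 356 to 384 bases. Per kilobase of gene, mt-Ts1 had a mean level of 632.4 CPM over all 10 libraries, which is 11.8 times that of the next tRNA, mt-Tn (53.4), and 506 times that of the lowest, mt-Td (1.25). mt-Tn and mt-Tc (49.0), which carry asparagine and cysteine, came next, and mt-Tf (3.58), mt-Tr (1.85) and mt-Td, for phenylalanine, arginine and aspartate, were lowest. 5 of the 6 highest were light-strand genes (mt-Ts1, mt-Tn, mt-Tc, mt-Ta and mt-Te), although 8 of the 22 are, and each of these 5 is antisense to the heavy-strand precursor. Reads from that precursor cannot be told from reads of these tRNAs. mt-Tm (35.1) was the highest of the 14 heavy-strand tRNA genes. Without mt-Ts1, a tRNA gene stood at a median of 4.504% of the lower of its flanking rRNA or mRNA genes per length, and mt-Ts1 at 54.6%. Nuclear copies were not added here. The lower neighbour of mt-Ts1 was mt-Co2, whose counts were divided with a nuclear copy, so its percentage would be smaller with that copy added.

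mt-Ts1 was the 1 tRNA gene without overlap between the groups. It stood at 55.4, 44.8, 53.4, 67.5 and 49.9 CPM in Ag 1 to 5 and at 35.1, 27.1, 39.0, 28.5 and 35.8 CPM in Ag+Costim 1 to 5. Its log2 fold change was -0.71 ± 0.15 (SE; adjusted p = 0.144 in edgeR and 0.000221 in DESeq2). It made up 52.0% to 75.0% of all tRNA counts. Per length it reached 0.391 ± 0.0358 of mt-Co1 in Ag and 0.279 ± 0.0175 in Ag+Costim (± SD, 5 libraries each), a ratio chosen after its values were seen, and these groups did not overlap either. The other 21 tRNA genes overlapped between the groups. The adjacent mt-Th, mt-Ts2 and mt-Tl2 had the Ag libraries in the same order, from Ag 3 down to Ag 5, with mt-Th at 0.520, 0.331, 1.94, 1.07 and 0.140 CPM in Ag 1 to 5 and between 0.233 and 0.504 CPM in Ag+Costim. mt-Tm, by contrast, was at 0.647 and 0.705 CPM in Ag 1 and 4, at 2.80 to 4.16 in Ag 2, 3 and 5, and at 1.88 to 2.93 in Ag+Costim. mt-Td rested on 12 to 49 counts and mt-Tr on 16 to 47 counts in a library, so their differences were not resolved.

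**Figure D2:**
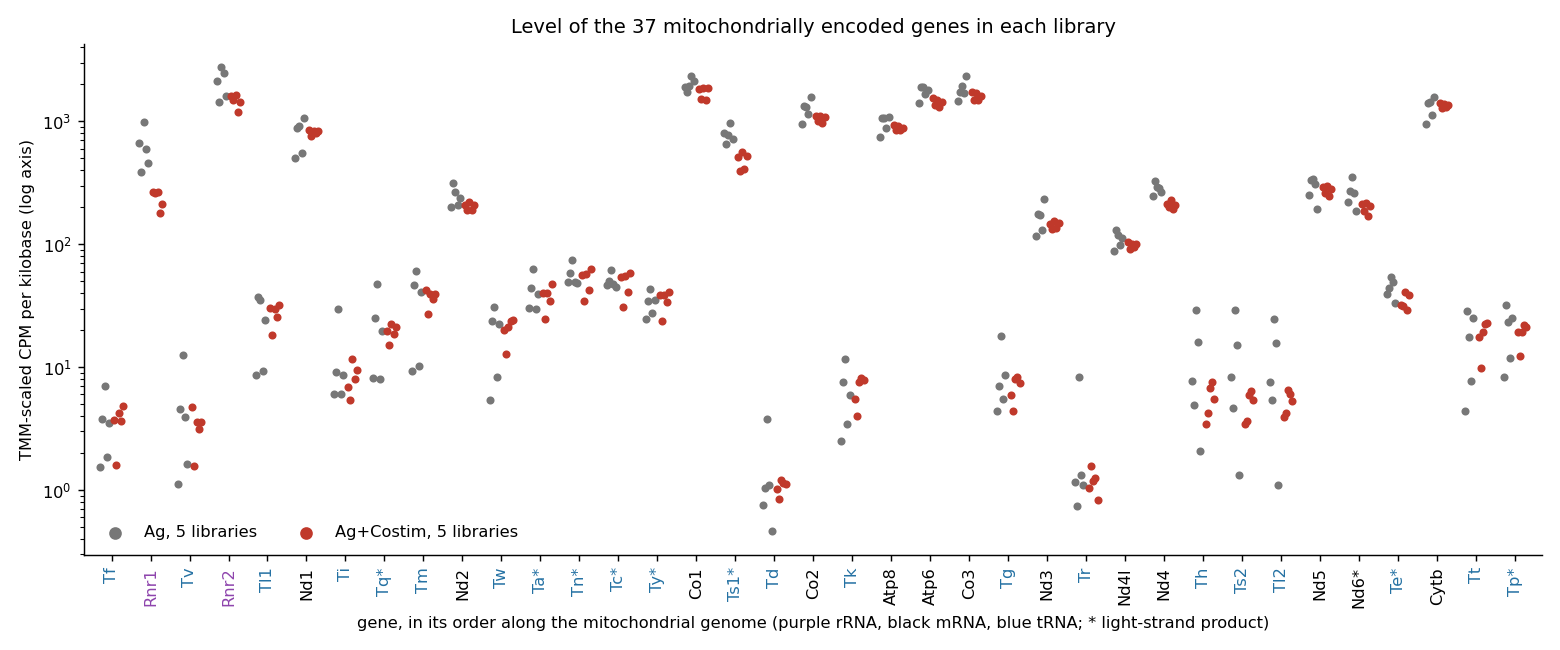
TMM-scaled CPM per kilobase (log axis) of each of the 37 genes in the 5 Ag (grey) and 5 Ag+Costim (red) libraries, in gene order along the mitochondrial genome, with tRNA genes in blue, rRNA genes in purple and light-strand genes starred. mt-Ts1, at 392.03 to 978.2, stands among the mRNAs while its neighbour mt-Td lies between 0.462 and 3.82, and mt-Rnr1, mt-Ts1 and mt-Nd4 are the genes whose groups do not overlap.

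Ratios between members within a library do not depend on the scaling between libraries, and 4 of the 5 ratios compared differed between the groups. Counts were divided by gene length, and the mean log2 ratios were compared by exact permutation (two-sided, all assignments of 5 against 5 libraries), whose smallest possible p is 0.0079. p-values were adjusted over the 5 ratios. The ratios were chosen with earlier results of these data known, which neither the p-values nor their adjustment take into account. mt-Rnr1 to mt-Rnr2 was 0.314, 0.269, 0.361, 0.240 and 0.283 in Ag 1 to 5 and 0.166, 0.175, 0.163, 0.151 and 0.148 in Ag+Costim 1 to 5. All Ag libraries lay above all Ag+Costim libraries, Ag 2 and 5 included. The mean log2 ratio was -1.78 ± 0.22 in Ag and -2.64 ± 0.10 in Ag+Costim (± SD, 5 libraries each; exact permutation p = 0.0079, adjusted p = 0.0099).

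The bicistronic pairs shifted towards their upstream gene in Ag+Costim. mt-Atp8 to mt-Atp6 was 0.526, 0.561, 0.561, 0.531 and 0.604 in Ag 1 to 5 and 0.607, 0.618, 0.614, 0.657 and 0.619 in Ag+Costim 1 to 5. The gap between the nearest libraries, Ag 5 and Ag+Costim 1, was small beside the spread. mt-Nd4l to mt-Nd4 was 0.354, 0.395, 0.401, 0.344 and 0.424 in Ag 1 to 5 and 0.498, 0.458, 0.439, 0.487 and 0.477 in Ag+Costim 1 to 5. Both had an exact permutation p of 0.0079 (adjusted p = 0.0099), and both kept this p with the nuclear copies added. For mt-Atp8 to mt-Atp6 a copy could be added to mt-Atp6 only. The search gave no copy of mt-Atp8, although the chromosome 1 stretch also spans its place, so the level of that ratio is uncertain.

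At the other junction, between genes on opposite strands, mt-Nd6 to mt-Nd5 was 0.876, 0.820, 1.04, 0.835 and 0.958 in Ag 1 to 5 and 0.721, 0.713, 0.725, 0.686 and 0.717 in Ag+Costim 1 to 5. The Ag+Costim libraries lay within a narrow band below all Ag libraries (exact permutation p = 0.0079, adjusted p = 0.0099). Counts of mt-Nd6 can include reads from the heavy strand, since strand was not marked. mt-Nd1 to mt-Rnr2, the step from rRNA to mRNA on the heavy strand, gave no such separation. It was 0.236, 0.618, 0.330, 0.225 and 0.655 in Ag 1 to 5 and between 0.508 and 0.674 in Ag+Costim, with Ag 1, 3 and 4 below and Ag 2 and 5 inside that range (exact permutation p = 0.151, adjusted p = 0.151).

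**Figure D3:**
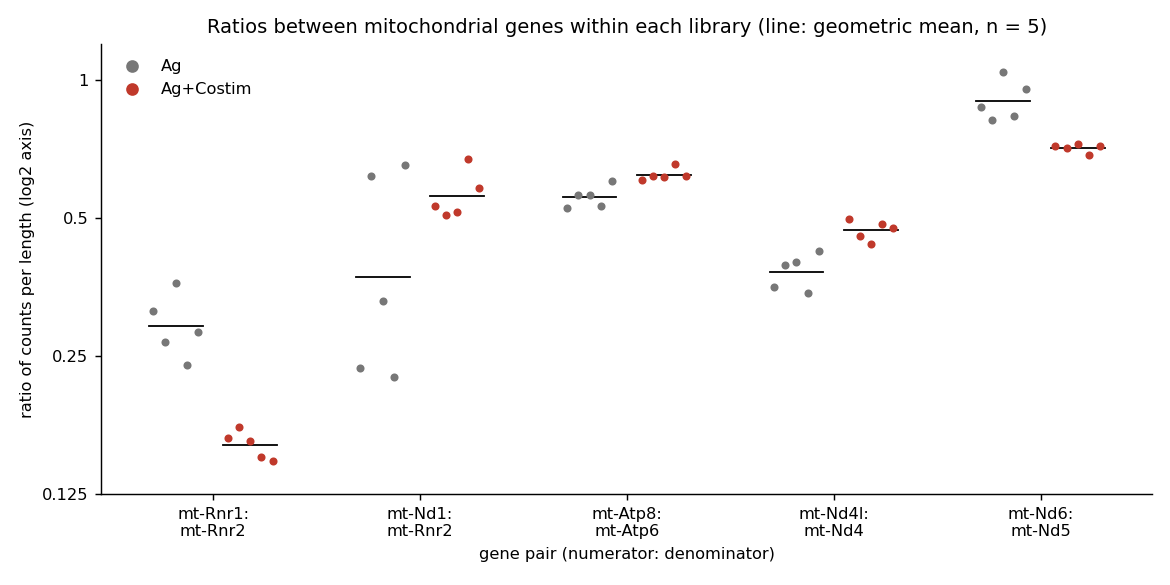
Ratio of counts per length (log2 axis) for 5 pairs of mitochondrial genes in each Ag (grey) and Ag+Costim (red) library, with the geometric mean of each group as a line (n = 5). The groups do not overlap for mt-Rnr1 to mt-Rnr2, mt-Atp8 to mt-Atp6, mt-Nd4l to mt-Nd4 and mt-Nd6 to mt-Nd5, whereas for mt-Nd1 to mt-Rnr2 the Ag libraries fall both below and within the Ag+Costim range.

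All 37 genes passed the filter on low counts, and none passed an adjusted p of 0.05 in edgeR, as for all genes tested (0 of 24262, 0.0%). At an unadjusted p under 0.05, edgeR gave 5 of the 37 as lower in Ag+Costim (mt-Rnr1, mt-Rnr2, mt-Nd4, mt-Nd6 and mt-Ts1) beside 10.7% of all genes, and 0 as higher beside 7.89%. DESeq2 called 12 of the 37 lower at an adjusted p under 0.05 (both rRNAs, 9 mRNAs and mt-Ts1), beside 19.7% of all genes, and 0 higher, beside 2.57%. limma with a quality weight per library called 9 lower and 7 higher, beside 26.3% and 25.7%, shares below those of all genes. In that fit, here and below, Ag 2 and Ag 5 had weights of only 0.0986 and 0.0656. The other libraries had weights between 0.508 (Ag 3) and 3.35 (Ag+Costim 1), so the limma calls rest little on Ag 2 and 5. Groups without overlap were found for 3 of the 37, all lower in Ag+Costim (mt-Rnr1, mt-Nd4 and mt-Ts1), beside 1.13% of all genes, and for 0 in the other direction, beside 4.48%. The count of non-overlapping genes turns on the scaling (7 with DESeq2 size factors, 10 with upper quartile factors, 1 without the filter), and of the 3 only mt-Rnr1 stood in all of these.

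The median log2 fold change was -0.22 over the 37 genes, -0.95 over the 2 rRNAs, -0.22 over the 13 mRNAs and -0.15 over the 22 tRNAs. It was -0.32 over all 24262 genes tested and 0.24 over the 8626 genes at a mean of 10 CPM or more, a shift of that reference that another scaling changes (0.12 with DESeq2 size factors, 0.017 with upper quartile factors, -0.0025 with total counts and 0.56 without the filter). Of the 13 mRNAs, 11 had a fitted value below 0, and only mt-Nd1 (0.06 ± 0.22) and mt-Cytb (0.05 ± 0.17, SE) above it. The signs of mt-Nd1 and mt-Cytb turned with DESeq2 size factors, total counts and upper quartile factors, and those of all mRNAs below 0 except mt-Nd4 turned without the filter on low counts. Relative to the median of genes at 10 CPM or more, all 13 mRNAs and both rRNAs lay lower in the fit with TMM factors.

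**Figure D4:**
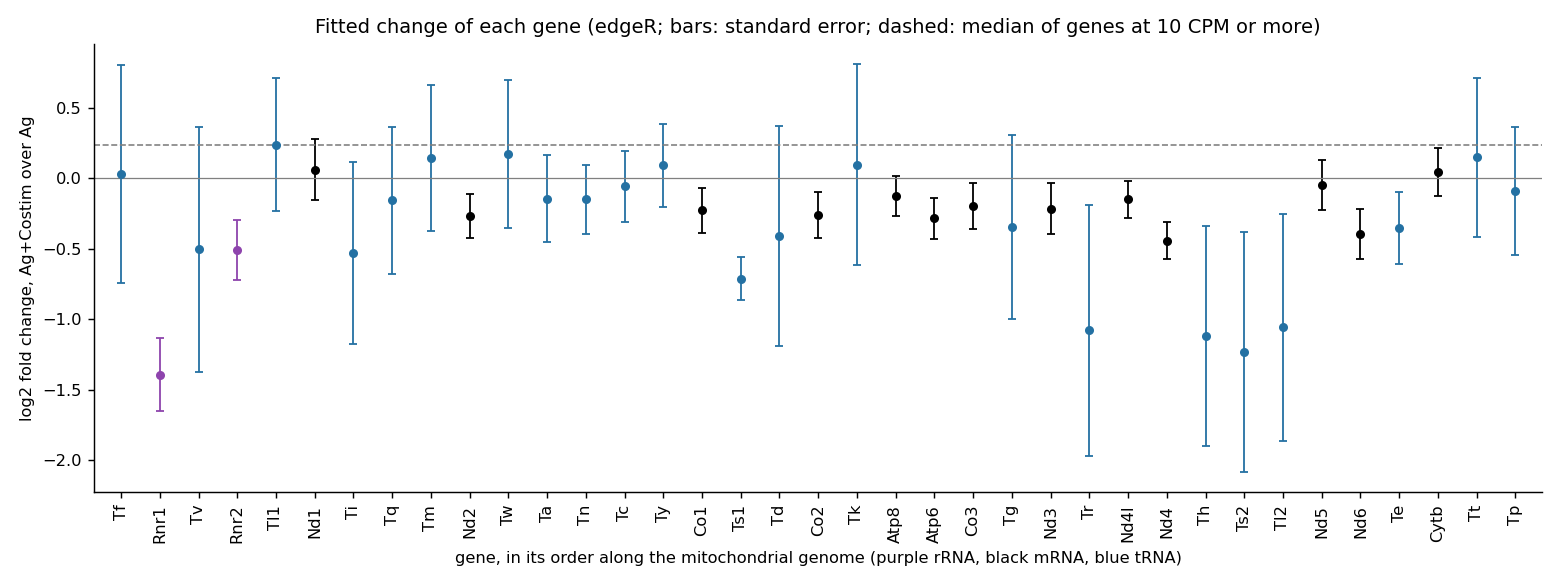
edgeR log2 fold change of Ag+Costim over Ag for each of the 37 genes in order along the mitochondrial genome, with its standard error (n = 5 libraries per group), a solid line at 0 and a dashed line at the median of genes at 10 CPM or more (0.24). mt-Rnr1 (-1.39) and mt-Ts1 (-0.71) lie lowest among the genes with short bars, and the bars of most tRNAs reach across 0.

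The nuclear genes that make and handle mitochondrial RNA had fitted values above 0 for 66 of 78 tested, with a median log2 fold change of 0.31, near the 0.24 of genes at 10 CPM or more. None of the 78 passed an adjusted p of 0.05 in edgeR. At an unadjusted p under 0.05, 25 were higher and 1 lower in edgeR, beside 7.89% and 10.7% of all genes. DESeq2 called 13 higher and 1 lower at an adjusted p under 0.05, beside 2.57% and 19.7% of all genes, and limma with quality weights called 58 higher and 3 lower, beside 25.7% and 26.3%. These shares, here and below, are over all genes tested (24262, and 36117 for DESeq2), not over genes at 10 CPM or more. In edgeR, fitted values were above 0 for 9145 of the 24262 and for 6520 of the 8626 genes at 10 CPM or more. In transcription and maintenance of the mitochondrial genome (24 tested, median 0.22), the DNA ligase Lig3 stood at 31.0 ± 4.64 CPM in Ag and 46.4 ± 8.67 in Ag+Costim, the helicase Twnk at 17.6 ± 2.17 and 23.8 ± 2.86, and the transcription factor Tfb2m at 20.8 ± 5.14 and 29.6 ± 1.97 (SD, n = 5 each). Of the 9 genes of this list with a fitted value below 0, the rule named Dguok, a deoxynucleoside kinase, at 64.7 ± 17.8 and 47.1 ± 3.96 CPM, Tk2, the mitochondrial thymidine kinase, at 33.8 ± 19.1 and 24.6 ± 3.19, and Rrm2b, a ribonucleotide reductase subunit, at 12.1 ± 3.17 and 9.72 ± 1.22 (SD, n = 5 each). Tk2 and Rrm2b passed no call in edgeR or DESeq2. Of the genes of this list named here, only Lig3 had groups without overlap.

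RNA processing and modification (32 tested, median 0.32) was led by Tbrg4, also known as FASTKD4, at 17.7 ± 5.32 CPM in Ag and 33.4 ± 3.79 in Ag+Costim (± SD, 5 libraries each). Its log2 fold change was 0.92 ± 0.21 (SE), with an adjusted p of 0.149 in edgeR and of 0.00142 in DESeq2, and its groups did not overlap. Trnt1, which adds the CCA end to tRNAs, stood at 57.6 ± 7.86 and 85.8 ± 6.38 CPM, and 1110008L16Rik at 13.5 ± 2.20 and 19.5 ± 0.916 (SD, n = 5 each). The 3 fitted values below 0 were those of Nsun3, which modifies a mitochondrial tRNA, the pseudouridine synthase Rpusd4 and Hsd17b10, a subunit of the 5′ tRNA-cleaving enzyme, with log2 fold changes of -0.04, -0.03 and -0.01. The list for stability, polyadenylation and decay had the highest median of the 4 (0.45, 9 tested, 9 above 0). There Lrpprc, which stabilises mitochondrial mRNAs, stood at 60.7 ± 19.6 and 105.1 ± 18.5 CPM, the helicase Supv3l1, which acts in RNA decay, at 21.9 ± 6.45 and 35.1 ± 2.95, and Angel2 at 76.9 ± 10.1 and 105.2 ± 5.77 (SD, n = 5 each), all 3 without overlap. Of the genes listed as translation factors (13 tested, 13 above 0, median 0.29), Taco1, a translational activator of mt-Co1, stood at 7.80 ± 3.20 and 13.9 ± 1.35 CPM (SD, n = 5 each). The release factor Mtrf1 stood at 8.65 ± 2.99 and 13.98 ± 0.835 CPM, and Mief1, whose place on this list was a choice, at 29.6 ± 4.14 and 40.1 ± 3.90 (SD, n = 5 each). Groups overlapped for Taco1 and Mtrf1 and not for Mief1.

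The nuclear partners of the mitochondrial subunits had medians of 0.14 for complex I (36 tested), 0.18 for complex III (9), 0.11 for complex IV (11) and 0.18 for complex V (17), beside a median of -0.22 for the 13 mitochondrial mRNAs. Summed over complex I, the nuclear subunits ranged from 3027 to 8794 CPM in Ag and from 5678 to 6092 in Ag+Costim. Ag 1 and 4 held the lowest and Ag 2 and 5 the highest sums, with the Ag+Costim libraries between them. In edgeR, 0 of these 73 nuclear subunits passed an adjusted p of 0.05, and 1 (Ndufs1, higher) an unadjusted p under 0.05, beside 7.89% of all genes. DESeq2 called Ndufs1 alone as higher, beside 2.57%, and limma with quality weights called 71 as higher, beside 25.7%. Ag 2 and 5, which held the highest sums, had the lowest weights in that limma fit. The 78 nuclear mitochondrial ribosomal proteins, found by their Mrpl and Mrps symbols, had a median of 0.28, with 76 above 0. Medians were 0.47 for 10 regulators of mitochondrial biogenesis, 0.50 for 16 genes of mitochondrial mass and dynamics and -0.0023 for 8 mitophagy genes. At an unadjusted p under 0.05 in edgeR, 5 and 3 genes of the first 2 lists were higher (7.89% of all genes), 1 gene each of the first and the last was lower (10.7% of all genes), and 0 passed an adjusted p of 0.05.

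**Figure D5:**
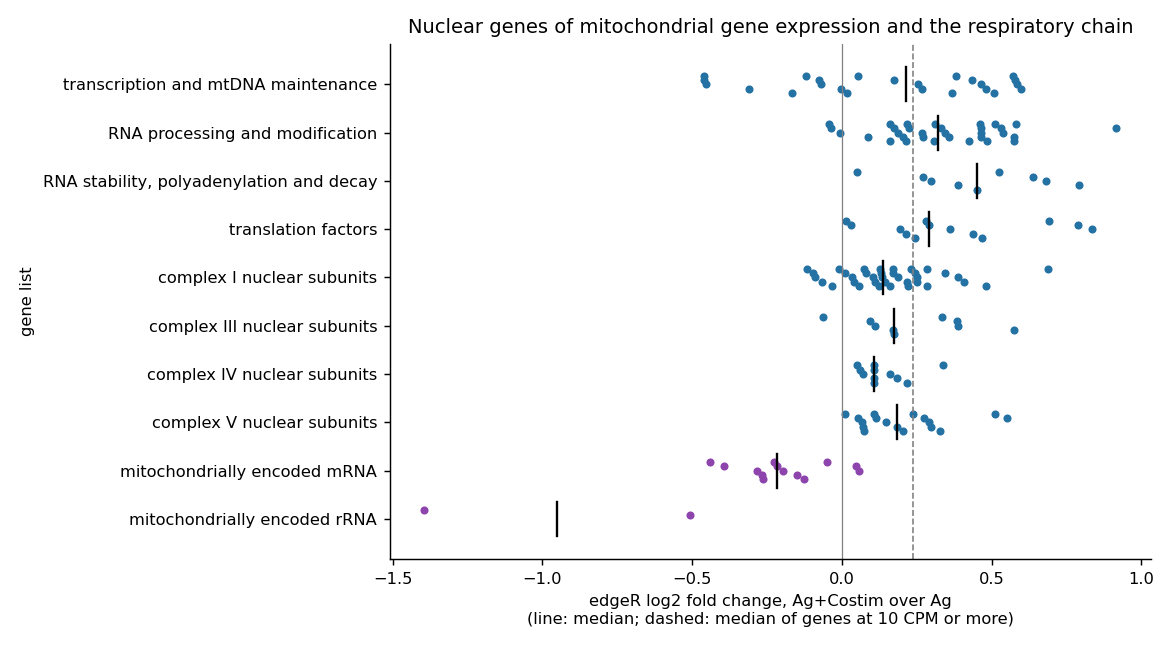
edgeR log2 fold change (Ag+Costim over Ag) of each tested gene in 4 lists of nuclear genes for mitochondrial gene expression and 4 of nuclear respiratory chain subunits (blue), with the mitochondrially encoded mRNAs and rRNAs (purple). Black lines are medians and the dashed line is the median of genes at 10 CPM or more (0.24); the medians of the nuclear lists lie between 0.11 and 0.45 and those of the mitochondrial mRNAs and rRNAs at -0.22 and -0.95.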

How the data were processed

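Poly(A) RNA was sequenced from 10 libraries of sorted CD8+ T cells, made with an oligo(dT)-primed kit (SMART-Seq v4) and tagmented. The labels list 15 libraries, and the counts of Naive cells were not analysed here. Per the labels, reads were aligned by the authors to mm10 with HISAT2 2.1.0, sorted with SAMtools 1.9 and counted with StringTie 2.1.0. The deposited values are estimated counts per gene, rounded to whole numbers and not normalized. The authors' handling of reads that match several places is not given in the sources used here. The facility's deposited sheet gave the fragment size of each library, another unit in bases. 26345 entries without a gene identifier (0.0458% to 0.308% of counts) stayed out of totals and tests.

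Counts of all 55536 genes were tested with edgeR 4.0.16 in R 4.3.3 (quasi-likelihood test, filterByExpr, TMM factors), with Benjamini-Hochberg adjustment over 24262 genes and a threshold of 0.05. DESeq2 1.42.0 and limma 3.58.1 (voom with quality weights) were run beside it, and the scripts were tested on simulated data. In that simulation edgeR recovered only a minority of the smaller changes made. Its power for such changes was low, so genes without a call in edgeR may still differ. Standard errors are the log2 fold change divided by the square root of the F statistic. Levels (CPM) are counts scaled with the TMM factors to a common library total. Shares and sums over members are described, with no test. Ratios were tested by exact permutation (scipy 1.17.1). Nuclear copies were annotated transcripts found with blastn 2.17.0 at 95% identity or more over at least 100 bases. Named were all rRNA and mRNA genes, the 3 highest and 3 lowest tRNA genes per length, those without overlap, and, of each of the 4 nuclear gene expression lists, up to 3 genes in each direction with the lowest p at a mean of 10 CPM or more. Other genes were named after their values were seen. The members, ratios and lists were chosen with earlier results of these data known. Alternatives covered the scaling, the filter, the test, the length correction, the replicate number as a block and leaving out each library.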

Additional observations from a re-analysis of the deposited data

Results flagged for a closer look

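Among 52 groups of 5 values (16 gene levels, 5 class shares and 5 ratios, in each group of libraries), 2 held a library far from the others by Dixon's criterion, which chance alone flags in about 1 of 20 groups. The tRNA share of mitochondrial counts was 0.520% in Ag 5 and between 0.584% and 0.610% in the other 4 Ag libraries. The ratio of mt-Atp8 to mt-Atp6 per length was 0.657 in Ag+Costim 4 and between 0.607 and 0.619 in the other 4 Ag+Costim libraries.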

How the results depend on the processing

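No gene of the 37 and none of the 78 nuclear genes passed the threshold in edgeR under any other scaling, without the filter on low counts or with 1 library left out (0 to 0). DESeq2 called 12 and 14, voom with quality weights 16 and 61, and edgeR without Ag 2 and 5, an alternative added after seeing the data, 6 and 63; the cause was not tested. Non-overlapping members numbered 3, and 7 with DESeq2 size factors, 7 with total counts, 10 with upper quartile factors, 1 without the filter, 7 without Ag 2 and 5 (mt-Cytb, 1 of these, was higher), and 3 to 5 with 1 library left out (5 without Ag 1). Differences of shares (Ag+Costim minus Ag, in percentage points) ranged with 1 library left out from -0.612 to -0.422 for the mitochondrial share, -7.28 to -4.18 for rRNA, -0.0929 to -0.0528 for tRNA and -0.511 to -0.267 for the light strand, and became -1.10 (tRNA) and -2.19 (light strand) for counts per length, another quantity. With 1 library left out, the differences in log2 ratio ranged from -0.928 to -0.780 (mt-Rnr1 to mt-Rnr2), 0.411 to 0.796 (mt-Nd1 to mt-Rnr2), 0.144 to 0.194 (mt-Atp8 to mt-Atp6), 0.263 to 0.338 (mt-Nd4l to mt-Nd4) and -0.376 to -0.290 (mt-Nd6 to mt-Nd5), without a lost call. Leaving out Ag 2 and 5 gave 1.11 for mt-Nd1 to mt-Rnr2, but these were the Ag libraries inside the Ag+Costim range and were chosen after the data were seen, so that separation is fixed by the choice and supports nothing.

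The shared replicate numbers do not pair the samples (correlations of deviations -0.30 to 0.25, no library closest to its own number). With the replicate block, edgeR called 0 members and 0 nuclear genes, and the paired exact test of the ratios, which cannot go below 0.0625, gave an adjusted p of 0.0781 for the same differences (-0.86, 0.16, 0.30 and -0.34).

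Signs of log2 fold changes turned for mt-Nd1 with DESeq2 size factors (-0.0607), total counts (-0.166), upper quartile factors (-0.158) and DESeq2 (-0.0523), and ranged with 1 library left out from -0.0616 (without Ag 1) to 0.213. They turned for mt-Cytb with the same 3 scalings (-0.0819, -0.204 and -0.181) and DESeq2 (-0.0728), and ranged with 1 library left out from -0.0438 (without Ag 1) to 0.147. Without the filter they turned for mt-Nd2 (0.102), mt-Co1 (0.106), mt-Co2 (0.0944), mt-Atp8 (0.241), mt-Atp6 (0.0820), mt-Co3 (0.162), mt-Nd3 (0.145), mt-Nd4l (0.216), mt-Nd5 (0.331) and mt-Nd6 (0.0259). They turned with voom for mt-Atp8 (0.0642), mt-Nd3 (0.127) and mt-Nd4l (0.0381), and without Ag 2 and 5 for mt-Co2 (0.0160), mt-Atp8 (0.114), mt-Co3 (0.0389), mt-Nd3 (0.151) and mt-Nd4l (0.0860). mt-Nd5 ranged with 1 library left out from -0.142 to 0.0409 (without Ag 2). None of these values passed the threshold. mt-Rnr1, mt-Rnr2, mt-Nd4 and mt-Ts1 kept their sign in all settings run. Low tRNA counts, coverage-derived counts and nuclear copies limit the precision.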
